A study of Mus musculus with 24 samples.

Results

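Integrins and laminins were examined as 1 family of receptors and ligands in sorted kidney stroma. The 30 genes were taken by symbol, as every listed integrin α or β chain and every listed laminin α, β or γ chain other than Itga8, out of 13803 genes in the deposited table. They comprised 13 integrin α chains, 7 integrin β chains and 10 laminin chains. The rule itself reads symbols only, but it was set with earlier results of these data known. All 30 passed the requirement of a log2 CPM (CPM being read counts scaled to library size) above 0 in at least 3 libraries, which removed 0 genes of the table.

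The tested cells were β-catSD stroma, deficient in β-catenin, on a C57BL/6 background, and β-catSO stroma, with stabilised β-catenin, on a CD1 background. Each was set against wild-type (WT) stroma of the same background, at embryonic days E12.5 and E13.5, in 8 groups of 3 libraries. All groups, wild-type included, carried FoxD1Cre-eGFP, which marks cells of the FoxD1 stromal lineage and by which embryonic kidneys were sorted after collagenase digestion. The sources used here name no allele that removes or stabilises β-catenin. Strain goes with line, so SD and SO were compared only through their own wild-types. Even then, genotype and a response that depends on strain cannot be told apart. Per genotype 3 kidneys are mentioned in the series text, but whether the replicates were separate animals is not stated in the labels. The p-values therefore measure the spread between these libraries, which may be technical. Library totals ran from 6184257 to 21168300 reads.

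Integrins are receptors of 1 α and 1 β chain that span the membrane and couple the extracellular matrix to the actin cytoskeleton. Laminins are trimers of an α, a β and a γ chain that polymerise into the sheet of every basement membrane, and the α chain carries the main integrin-binding domains. In the developing kidney laminin-rich basement membranes surround the ureteric bud, the nascent nephron and the vessels, and the stroma lies against all of these.

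β-catenin acts on transcription through DNA-binding partners of the Tcf/Lef family, so promoters of the family were searched for their motif. The search covered 20 RefSeq (GRCm38.p6) promoters of 19 of the 30 genes. The other members, Lama3 among them, were left out of it. Some searched windows, such as those of Itga9 and Lama2, lie inside the annotated gene. Windows of other called genes were searched but are not shown. The 4 shown are the 250 bases before the start of genes that were called in SD or SO stroma, and none of them reaches into the annotated transcript. They are Itgb5 at chr16:33829415-33829664 on the plus strand, Itgav at chr2:83724147-83724396 on the plus strand, Itgb1 at chr8:128685404-128685653 on the plus strand and Itga1 at chr13:115101965-115102214 on the minus strand. Capitals mark exact matches, on either strand, to the Tcf/Lef motif CTTTGAA or to the GC box GGGCGG, and every sequence is read 5′ to 3′ towards the gene.
Itgb5: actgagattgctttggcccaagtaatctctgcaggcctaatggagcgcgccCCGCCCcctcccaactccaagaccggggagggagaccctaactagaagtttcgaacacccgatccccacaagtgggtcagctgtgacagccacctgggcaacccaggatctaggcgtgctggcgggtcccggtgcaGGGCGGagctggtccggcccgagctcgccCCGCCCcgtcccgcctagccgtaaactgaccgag
Itgav: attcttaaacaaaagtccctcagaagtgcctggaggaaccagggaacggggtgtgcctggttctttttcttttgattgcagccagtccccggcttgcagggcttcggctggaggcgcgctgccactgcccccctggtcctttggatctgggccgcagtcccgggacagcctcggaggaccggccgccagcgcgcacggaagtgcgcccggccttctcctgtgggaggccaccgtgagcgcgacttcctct
Itgb1: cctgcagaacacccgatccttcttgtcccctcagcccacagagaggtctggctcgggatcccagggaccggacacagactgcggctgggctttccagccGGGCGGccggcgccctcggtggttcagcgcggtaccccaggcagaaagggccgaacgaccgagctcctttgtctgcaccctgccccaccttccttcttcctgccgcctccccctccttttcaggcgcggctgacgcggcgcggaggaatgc
Itga1: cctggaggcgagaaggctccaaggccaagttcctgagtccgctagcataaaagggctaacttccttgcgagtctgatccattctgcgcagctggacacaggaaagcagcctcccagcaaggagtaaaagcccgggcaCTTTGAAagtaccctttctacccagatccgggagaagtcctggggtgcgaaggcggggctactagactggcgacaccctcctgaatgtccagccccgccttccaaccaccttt
The Itga1 window holds CTTTGAA, beginning 113 bases before the start, while the Itgb5 window holds 3 GC boxes, the Itgb1 window 1 and the Itgav window no match. CTTTGAA was found in 2 of the 20 family promoters searched (10%), those of Itga1 and Itga10, against 4.46% of all 32851 RefSeq promoters of this length. Because members were left out of the family set, its percentages may not be fully comparable with those of all promoters. The second form searched, CTTTGAT, was in 0 of 20, against 3.21%. The GC box was in 9 of 20 (45%), against 32.7%, and TATAAA in 0 of 20, against 12.4%. A match is letters in a window rather than a measured site.

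The kidney stroma markers averaged between log2 CPM 8.14 and 8.69 over 14 genes in all 24 libraries, so the labelled cell type was present throughout. A pair of wild-type libraries stood apart. WT C57BL/6 E12.5 replicate 3 averaged log2 CPM 7.82 over 6 liver markers, against -3.02 and -3.41 in the other replicates, and exceeded both by more than 1 on the log2 scale for 7 of the 30 genes (Itga11, Itga4, Itgal, Itgam, Itgb2, Itgb7 and Lama3). WT CD1 E13.5 replicate 1 averaged 4.38 over 14 ureteric bud markers, against 0.70 and 0.40, and exceeded both others by the same margin for Itga2, Itga6, Itgam, Lama5 and Lamc3 among others. That library was also high in endothelial markers (5.83, against 2.53 and 1.10) and in nephron progenitor and early nephron markers (5.27, against 3.09 and 3.31). Liver markers were also raised in all 3 WT CD1 E12.5 libraries (3.01 to 3.32) and in WT CD1 E13.5 replicate 3 (5.51). The replicates' spread was wide for much of the family, with a median SD within groups of 0.54 on the log2 scale, against 0.19 over all genes.

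Per kilobase of longest transcript, the stroma held a core of 9 abundant chains and a long tail. Itgb1, the β chain shared by most matrix-binding integrins, was highest, with a mean of 183.7 CPM per kilobase over the 24 libraries and a range of 155.4 to 217.1. Lamb1 (63.3), Itga9 (59.2), Itgb5 (49.4), Lamc1 (42.6), Itgav (37.9), Itga5 (31.1), Lama4 (30.7) and Lamb2 (16.7) followed, all in mean CPM per kilobase. Itga9 is an α chain for tenascin-C and osteopontin, Itgav and Itgb5 form a vitronectin receptor, and Itga5 with Itgb1 is the fibronectin receptor. Below these came Lama2 (7.85), Itga6 (6.66), Lama1 (4.68), Itga3 (4.10), Itgb3 (3.13) and Itga2b (2.66), in the same unit. The other 15 chains averaged between 0.177 (Itgb4, partner of Itga6 in epithelial hemidesmosomes) and 2.02 (Itga4).

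**Figure D1:**
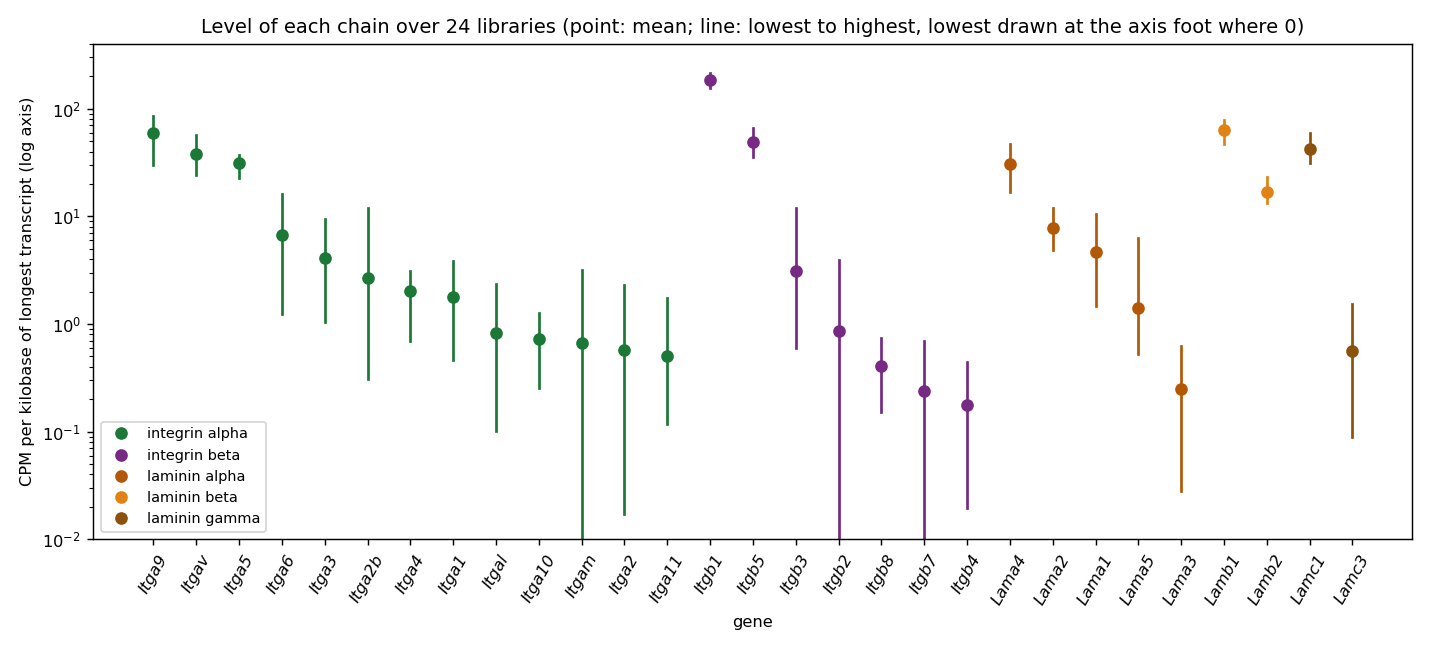
Level of 29 of the 30 chains in CPM per kilobase of longest transcript on a log axis; points are means over 24 libraries and lines run from the lowest to the highest library. Itgb1 stands highest at 183.7, and Itgb4 lowest at 0.177.

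The composition of the laminin α chains differed between genotypes, with Lama1 taking a larger share in SO stroma and a smaller one in SD stroma. Of the summed laminin α level per kilobase, Lama1 made up 22.98% ± 1.77 in SO stroma at E12.5, against 10.27% ± 1.77 in WT CD1, and 20.78% ± 3.01 in SO stroma at E13.5, against 9.07% ± 3.03 in WT CD1 (SD, n = 3 each). In SD stroma it made up 4.26% ± 1.19 at E12.5, against 9.28% ± 1.81 in WT C57BL/6, and 4.03% ± 0.88 at E13.5, against 6.84% ± 0.69 in WT C57BL/6. Lama4, the α chain of mesenchymal and vessel-wall laminins, was the main α chain everywhere, at 51.8% and 50.9% in SO stroma (E12.5 and E13.5), against 63.4% and 70.2% in WT CD1. Lama5, the main α chain of mature kidney basement membranes, stayed at or under 5.39% in every group mean.

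**Figure D2:**
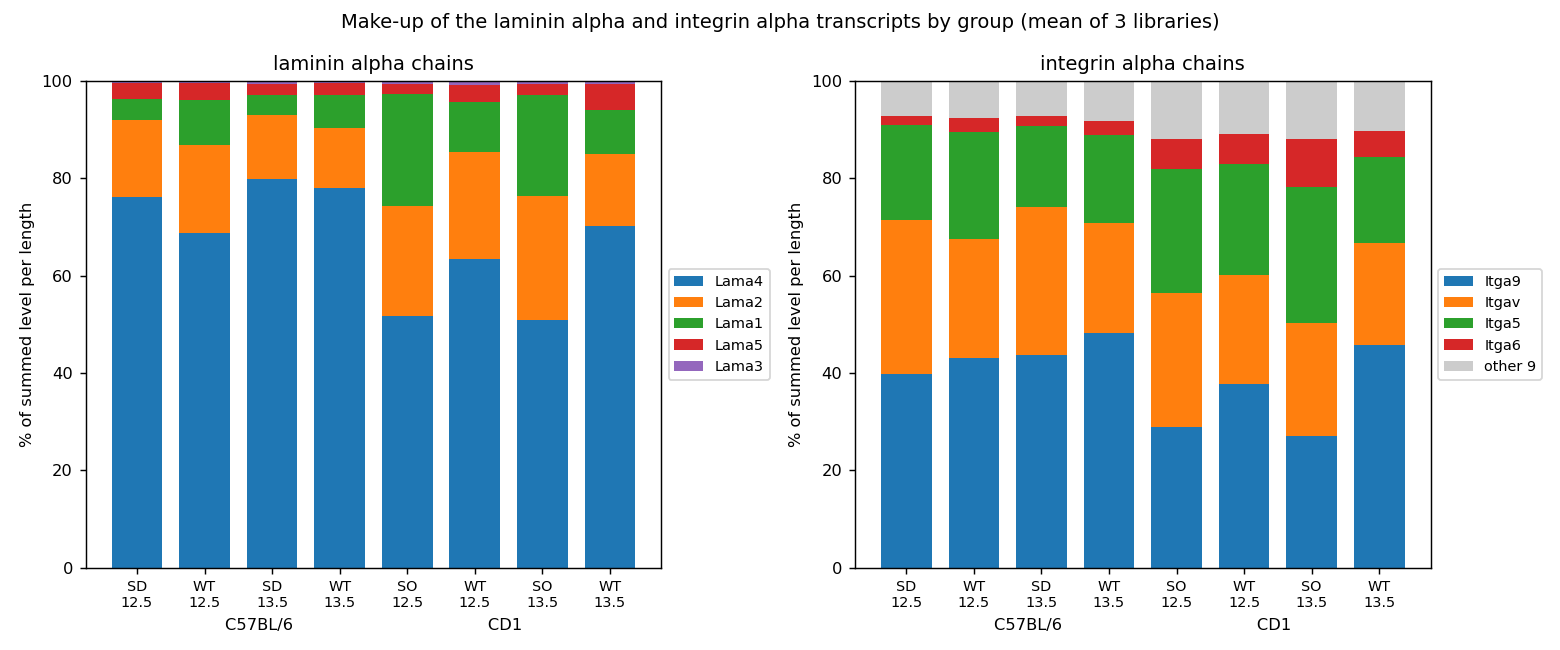
Share of each chain in the summed laminin α level (left) and integrin α level (right) per kilobase, as the mean of 3 libraries in each of the 8 groups. Lama1 reaches 22.98% in SO stroma at E12.5 and is 4.03% in SD stroma at E13.5, and Itga9 is smallest in SO stroma at E13.5, at 27.0%.

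Among integrin α chains, Itga9 held 28.8% and 27.0% in SO stroma (E12.5 and E13.5), against 37.8% and 45.7% in WT CD1. Itgav held 31.8% and 30.4% in SD stroma, against 24.4% and 22.5% in WT C57BL/6. Itgb1 made up between 73.0% and 83.5% of the β chains in every group mean, and Lamb1 between 76.3% and 82.7% of the laminin β chains. A share can move because its own chain or another moved, so the tests that follow were made on each gene's log2 CPM.

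In SD stroma, set against WT C57BL/6, the laminin chain Lama1 and the platelet integrin chains Itga2b and Itgb3 fell, while Itgav and Itgb5 rose. By limma with Benjamini-Hochberg adjustment over all genes tested, taking the mean of the stages, 7 of the 30 genes were called, 3 higher and 4 lower. Over all genes 7.17% were called, 3.46% higher and 3.71% lower, so 23.3% of the family was called. The median log2 change was 0.04 over the family and 0.00 over all genes. At single stages 2 of 30 were called at E12.5, against 1.72% of all genes, and 4 of 30 at E13.5, against 3.4%. These small counts depended on the libraries, from 0 (without SD replicate 3 or WT replicate 2) to 5 (without SD replicate 1) at E12.5, and from 1 (without WT replicate 3) to 3 at E13.5. The libraries of SD and WT did not overlap for 7 of 30 genes at E12.5, against 16% of all genes, and for 13 of 30 at E13.5, against 21.2%.

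Lama1 (chr17:67697259-67822647, GRCm38) encodes the α chain of the first laminin that epithelial basement membranes receive in the embryo. Its log2 CPM was 3.92, 4.39 and 4.03 in SD stroma at E12.5, against 4.75, 5.36 and 5.00 in WT C57BL/6. At E13.5 it was 3.83, 4.53 and 4.40 in SD stroma, against 5.06, 4.84 and 5.20 in WT C57BL/6. Every SD library lay below every WT library of its stage. The fall was 0.92 on the log2 scale at the earlier stage and 0.78 at the later (limma, adjusted p = 0.0258 and 0.0447). Taken over both stages, the log2 change was -0.85 (SE 0.15, limma adjusted p = 0.000842), or 1.80-fold lower in SD stroma, and that call held in every refit without 1 library. The single-stage calls were lost without SD replicate 1 or 3 at either stage, without WT replicate 2 at E12.5 or without any WT replicate at E13.5 (adjusted p up to 0.25). Precision weights also ended both (0.0585 and 0.244), and the E13.5 call was lost with a pseudocount of 1 (0.0541) and with the 12 libraries of the line alone (0.0608). In sorted bulk RNA, fewer cells that express a gene and less RNA per cell cannot be told apart.

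Itgav (chr2:83724397-83806916) is the α chain common to the receptors for vitronectin and for the latent form of TGF-β. Its log2 CPM was 8.23, 8.55 and 8.54 in SD stroma at E12.5, against 7.88, 7.91 and 7.93 in WT C57BL/6. It was 8.49, 8.64 and 8.56 in SD stroma at E13.5, against 8.09, 7.80 and 7.82 in WT C57BL/6. The groups did not overlap at either stage. Itgav rose by 0.60 on the log2 scale over both stages (SE 0.08, limma adjusted p = 4.26e-05), 1.51-fold, with 0.53 at E12.5 and 0.66 at E13.5. The E12.5 call was lost without SD replicate 2 or 3 or WT replicate 1 or 2 (adjusted p up to 0.0913). Itgav shares exonic sequence on the opposite strand with Gm13684, and no source used here says whether counting used strand.

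Itgb5 (chr16:33829665-33949338), the β chain that pairs with Itgav alone, moved the same way. Its log2 CPM was 7.75, 7.48 and 7.49 in SD stroma at E12.5, against 7.40, 7.33 and 7.35 in WT C57BL/6, and 7.75, 7.62 and 7.52 in SD stroma at E13.5, against 7.28, 7.31 and 7.15 in WT C57BL/6. All 6 SD libraries lay above the WT libraries of their stage. The mean change was 0.30 (SE 0.06, limma adjusted p = 0.0033), or 1.23-fold. At E13.5 alone it was 0.39 (adjusted p = 0.0134, lost without SD replicate 1 or WT replicate 3, up to 0.0961) and at E12.5 0.21 (adjusted p = 0.265). Of the other β partners of Itgav, Itgb1 changed by 0.03 (SE 0.04) and Itgb8 by -0.02 (SE 0.33), neither past the threshold, and Itgb3 fell. Their differences from Itgb5 were not tested.

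Lamb2 (chr9:108479736-108490530), the laminin β chain whose loss in humans causes congenital nephrotic syndrome, rose by 0.38 over both stages (SE 0.08, limma adjusted p = 0.00287), 1.30-fold. Its log2 CPM was 6.55, 6.63 and 7.02 in SD stroma at E12.5, against 6.25, 6.31 and 6.58 in WT C57BL/6, where the groups overlapped. At E13.5 it was 6.58, 6.77 and 6.83 in SD stroma, against 6.39, 6.32 and 6.26 in WT C57BL/6, with no overlap. The call at E13.5 alone (0.40, adjusted p = 0.0419) was lost without SD replicate 2 or 3 or any WT replicate (adjusted p up to 0.173), with precision weights (0.103) and with the 12 libraries of the line alone (0.104). The more abundant β chain, Lamb1, changed by 0.08 (SE 0.08) and the main γ chain, Lamc1, by 0.04 (SE 0.09), neither past the threshold.

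Itga2b and Itgb3, which together form the fibrinogen receptor of platelets and megakaryocytes, were lower in SD stroma beside markers of those cells. Itga2b had a log2 CPM of 1.91, 1.24 and 1.27 in SD stroma at E12.5, against 3.65, 2.51 and 3.68 in WT C57BL/6, and 0.18, 0.60 and 0.99 in SD stroma at E13.5, against 1.93, 2.00 and 1.19 in WT C57BL/6. Itgb3 had 3.07, 2.94 and 3.28 in SD stroma at E12.5, against 4.25, 4.69 and 4.97 in WT C57BL/6, and 2.24, 1.82 and 2.36 in SD stroma at E13.5, against 3.67, 3.14 and 2.56 in WT C57BL/6. Neither gene's groups overlapped at either stage. Even so, neither was called at E12.5 (limma adjusted p = 0.0776 for Itga2b and 0.0543 for Itgb3) or at E13.5. Over both stages Itga2b changed by -1.46 (SE 0.37, limma adjusted p = 0.0148) and Itgb3 by -1.26 (SE 0.29, adjusted p = 0.00743). With precision weights the calls were lost, at an adjusted p of 0.347 and 0.127. Of 11 measured megakaryocyte and platelet markers, 6 fell in SD stroma over both stages and 0 rose, against 3.71% of all genes called lower. The mean log2 CPM of that list ran from -0.37 to -0.18 in SD stroma at E12.5, against 1.58 to 2.71 in WT C57BL/6, and from -1.40 to -0.88 in SD stroma at E13.5, against 0.26 to 0.96 in WT C57BL/6. Reads of Gp9, a platelet glycoprotein, numbered 1, 1 and 2 in SD stroma at E12.5, against 15, 33 and 34 in WT C57BL/6, and 0, 0 and 3 in SD stroma at E13.5, against 7, 6 and 13 in WT C57BL/6. The part of these cells in the integrin result was not tested.

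Itga4, the α chain for VCAM-1 and fibronectin on leukocytes and mesenchyme, had a log2 CPM of 2.77, 3.89 and 3.95 in SD stroma at E12.5, against 3.52, 3.63 and 4.72 in WT C57BL/6. At E13.5 it had 3.54, 3.75 and 3.84 in SD stroma, against 4.73, 4.72 and 4.80 in WT C57BL/6. The groups overlapped at E12.5 and separated at E13.5. The mean change was -0.73 (SE 0.21, limma adjusted p = 0.0344), a call lost without SD E12.5 replicate 1, without WT E12.5 replicate 3 or without any of the 6 E13.5 libraries (adjusted p up to 0.0985), and with the 12 libraries of the line alone (0.0716) or without both libraries that stood apart (0.0939). Of 17 macrophage and leukocyte markers, 13 fell and 0 rose over both stages, against 3.71% of all genes called lower. Their mean log2 CPM ran from 2.10 to 3.30 in SD stroma at E12.5, against 2.41 to 5.18 in WT C57BL/6, and from 0.02 to 1.33 in SD stroma at E13.5, against 3.17 to 3.99 in WT C57BL/6. Csf1r, which defines macrophages, was not at 0 in any library (at least 32 reads), and the part of these cells was not tested. Itga4 and Cerkl overlap on opposite strands.

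Of the leukocyte integrins, Itgal fell short of the threshold at -1.04 over both stages (SE 0.37, limma adjusted p = 0.0977), as did Itgam at -1.58 (SE 0.61, adjusted p = 0.134) and their shared β chain Itgb2 at -0.45 (SE 0.75, adjusted p = 0.80). Itgam summed to 2 reads in the 3 SD libraries at E13.5, against 26 in WT C57BL/6. Scaled to library size this was 11.5-fold lower in SD stroma, with an exact 95% interval of 2.87 to 99.6 that covers counting error only. In SO stroma none of the 3 was called. Their scaled read sums were 2.07, 3.10 and 3.89 times those of WT CD1 at E13.5 (Itgal, Itgam and Itgb2). At E12.5 the ratios were 0.67, 0.81 and 0.69. SO libraries at E13.5 were uneven, with 41 to 314 reads of Itgam and 21 to 250 of Itgb2. Endothelial markers also fell in SD stroma, 8 of 15 over both stages with 0 rising, against 3.71% of all genes called lower. Their list mean was 0.30 to 1.39 in SD stroma at E13.5, against 3.10 to 3.24 in WT C57BL/6.

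**Figure D3:**
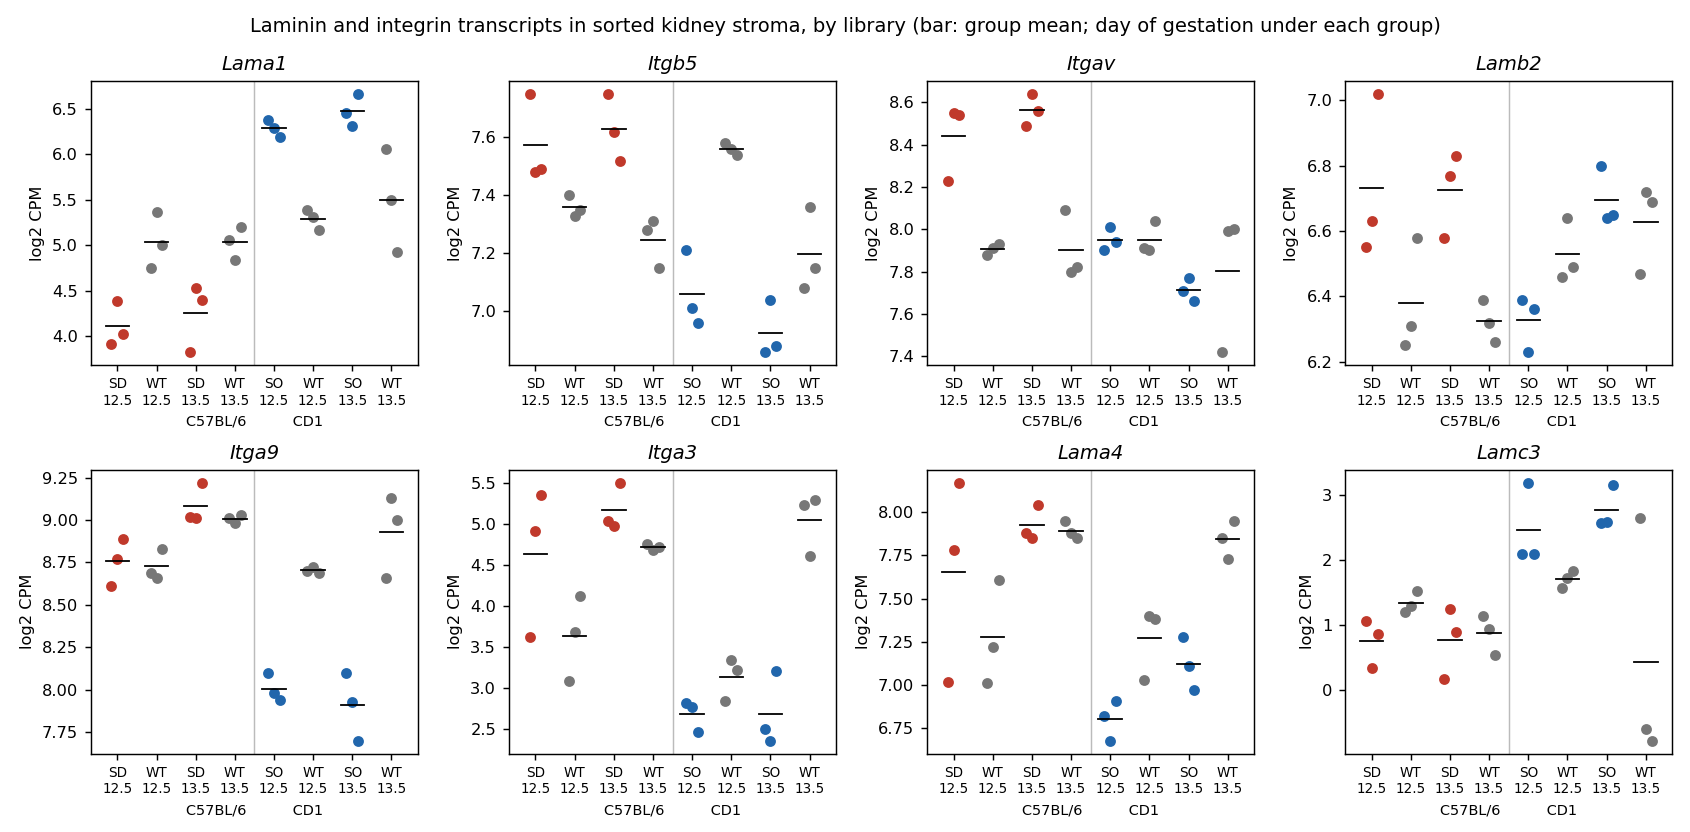
Log2 CPM of 8 called chains in every library, with SD (red) and SO (blue) left of their wild-type (grey) at each stage and bars at group means. Lama1 lies below WT in SD and above it in SO, and Itgb5 the other way round.

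In SO stroma, set against WT CD1, Itga9, Itga3, Itgb5, Lama4 and Lama5 fell, and Itga1, Itgb1, Lama1 and Lamc3 rose. By limma over the mean of the stages, 9 of 30 were called (30%), 4 higher and 5 lower, against 18.5% of all genes (10.2% higher and 8.32% lower). The median log2 change was -0.05 over the family and 0.00 over all genes. At E12.5 4 of 30 were called, against 8.16% of all genes, and at E13.5 9 of 30, against 15.4%. The libraries of SO and WT did not overlap for 12 of 30 genes at each stage, against 31.1% of all genes at E12.5 and 27.9% at E13.5.

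Itga9 (chr9:118606690-118901003), the tenascin-C and osteopontin receptor chain, fell in SO stroma with the smallest p of the family. Its log2 CPM was 8.10, 7.98 and 7.94 in SO stroma at E12.5, against 8.70, 8.72 and 8.69 in WT CD1. It was 8.10, 7.93 and 7.70 in SO stroma at E13.5, against 8.66, 9.13 and 9.0 in WT CD1. The groups stood clear of each other at both stages. The mean change was -0.85 (SE 0.07, limma adjusted p = 7.54e-09), 1.81-fold lower in SO stroma, with -0.69 at E12.5 and -1.02 at E13.5. In SD stroma it changed by 0.06 (SE 0.07, adjusted p = 0.744).

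Itga3 (chr11:95044474-95076801), a laminin receptor chain needed for glomerular and collecting duct structure in mice, was the 1 member whose SO effect was called different between stages. In WT CD1 it was 3.78-fold higher at E13.5 than at E12.5. Its libraries measured log2 CPM 2.50, 2.36 and 3.21 in SO stroma at E13.5, against 5.24, 4.61 and 5.30 in WT CD1. At E12.5 it was 2.82, 2.77 and 2.46 in SO stroma, against 2.84, 3.35 and 3.22 in WT CD1. SO libraries thus lay below WT at both stages, narrowly at E12.5. The change was -2.36 at E13.5 (SE 0.33, limma adjusted p = 1.44e-05), 5.14-fold lower, and -0.45 at E12.5 (SE 0.33, adjusted p = 0.474). The difference between the stages was -1.91 (SE 0.46, limma adjusted p = 0.044), in a test that called 1 of 30 genes, against 1.33% of all genes. That call was lost without any of the 3 SO or 3 WT libraries at E12.5, or SO replicate 1 or 2 or WT replicate 3 at E13.5 (adjusted p up to 0.115), and with precision weights (0.189). In the SD line the same test of stages called 0 of 30 genes by limma, and 0% of all genes.

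Lama1 rose in SO stroma at both stages. The log2 CPM was 6.37, 6.29 and 6.19 in SO stroma at E12.5, against 5.39, 5.31 and 5.17 in WT CD1, and 6.45, 6.31 and 6.66 in SO stroma at E13.5, against 6.06, 5.50 and 4.93 in WT CD1. No SO library overlapped the WT range. The mean change was 0.99 (SE 0.15, limma adjusted p = 3.97e-05), 1.98-fold, with 0.99 at E12.5 and 0.98 at E13.5. Across all settings it ran from 0.93 to 1.04 at E12.5 and from 0.69 to 1.26 at E13.5. The WT value of 6.06 came from WT CD1 E13.5 replicate 1, rich in ureteric bud, endothelial and nephron transcripts.

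Itga1 (chr13:114953096-115101964), a collagen receptor chain of mesenchymal and smooth muscle cells, rose by 1.13 in SO stroma (SE 0.24, limma adjusted p = 0.00136), 2.18-fold. It had a log2 CPM of 5.17, 4.89 and 4.85 in SO stroma at E12.5, against 3.16, 3.76 and 3.88 in WT CD1, and 4.98, 5.19 and 5.41 in SO stroma at E13.5, against 4.0, 4.07 and 4.87 in WT CD1. The groups were apart at both stages. The change was called at E12.5 (1.37, adjusted p = 0.0112, lost without SO or WT replicate 1, up to 0.0741) and missed the threshold at E13.5 (0.88, adjusted p = 0.0824). Itga1 overlaps Gm49395 on its own strand and shares near-identical sequence with it. In SD stroma Itga1 changed by 0.64 over both stages (SE 0.24, adjusted p = 0.114). It was 0.14 there at E12.5 and 1.14 at E13.5, where SD and WT libraries did not overlap and the change missed the threshold (adjusted p = 0.0646).

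Itgb1 (chr8:128685654-128733200), the partner of Itga1, Itga3, Itga5 and Itga9, changed little in size but beyond its narrow spread. Libraries gave log2 CPM values of 9.62, 9.69 and 9.65 in SO stroma at E13.5, against 9.21, 9.39 and 9.40 in WT CD1, and 9.49, 9.51 and 9.50 in SO stroma at E12.5, against 9.36, 9.48 and 9.49 in WT CD1. The change was 0.32 at E13.5 (SE 0.06, limma adjusted p = 0.000516) and 0.06 at E12.5 (adjusted p = 0.654), with a mean of 0.19 (adjusted p = 0.00234), 1.14-fold.

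Itgb5 fell in SO stroma, opposite to its rise in SD stroma. In log2 CPM it measured 7.21, 7.01 and 6.96 in SO stroma at E12.5, against 7.58, 7.56 and 7.54 in WT CD1, and 6.86, 7.04 and 6.88 in SO stroma at E13.5, against 7.08, 7.36 and 7.15 in WT CD1. The mean change was -0.38 (SE 0.06, limma adjusted p = 6.64e-05), 1.30-fold lower. It was -0.50 at E12.5 and -0.26 at E13.5, and the second call (adjusted p = 0.0428) was lost without SO replicate 1 or 3 or WT replicate 2 or 3 (up to 0.222), with precision weights (0.0534) and with the 12 libraries of the line alone (0.0577). Its partner Itgav changed by -0.05 (SE 0.08, adjusted p = 0.755).

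Lama4 (chr10:38965515-39110188) fell while Lama1 rose. It had a log2 CPM of 6.82, 6.68 and 6.91 in SO stroma at E12.5, against 7.03, 7.40 and 7.38 in WT CD1, and 7.28, 7.11 and 6.97 in SO stroma at E13.5, against 7.85, 7.73 and 7.95 in WT CD1. The groups did not overlap at either stage. On average it changed by -0.60 (SE 0.13, limma adjusted p = 0.00182), 1.51-fold lower, with -0.47 at E12.5 (adjusted p = 0.13) and -0.73 at E13.5 (adjusted p = 0.00818). Lama5 was lower by a mean of 2.04-fold (log2 change -1.03, SE 0.33, adjusted p = 0.0288). It had 3.22, 3.29 and 2.61 in SO stroma at E12.5, against 3.24, 4.24 and 4.31 in WT CD1, and 3.38, 3.68 and 3.60 in SO stroma at E13.5, against 6.16, 3.95 and 4.07 in WT CD1. The highest value, 6.16, was in WT CD1 E13.5 replicate 1, rich in ureteric bud, endothelial and nephron transcripts. The Lama5 call was lost without SO E12.5 replicate 3, SO E13.5 replicate 1, WT E12.5 replicate 2 or 3, or WT E13.5 replicate 1 (adjusted p up to 0.0857), with precision weights (0.0575) and without both libraries that stood apart (0.0763).

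Lamc3 (chr2:31887291-31946539), a scarce laminin γ chain, had a log2 CPM of 2.10, 3.19 and 2.10 in SO stroma at E12.5, against 1.57, 1.72 and 1.83 in WT CD1. At E13.5 it had 2.57, 2.59 and 3.15 in SO stroma, against 2.65, -0.59 and -0.77 in WT CD1. The 2.65 came from WT CD1 E13.5 replicate 1, rich in ureteric bud, endothelial and nephron transcripts, and with it the E13.5 groups overlapped. Over both stages the change was 1.55 (SE 0.42, limma adjusted p = 0.0097), 2.92-fold, with 2.34 at E13.5 (adjusted p = 0.00753) and 0.76 at E12.5 (adjusted p = 0.515). The E13.5 call was lost without WT replicate 2 or 3 (up to 0.0669). Its size depended on the settings, from 1.55 with a pseudocount of 1 to 3.45 without WT replicate 1, and the summed reads, 310 in SO stroma and 112 in WT CD1, gave a ratio of 1.87 after scaling to library size (exact 95% interval 1.502 to 2.342, counting error only). A count-model fit run earlier lost the Lamc3 calls, and its values are not given here. Counts were small, from 4 to 127 reads per library over all groups, and Lamc3 overlaps Gm13441 on the opposite strand.

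Itga5, and Lama2, the α chain of muscle and nerve laminins, were called higher in SO stroma at E13.5 and not at E12.5. Itga5 (chr15:103344286-103366763) had a log2 CPM of 7.14, 7.36 and 7.36 in SO stroma at E13.5, against 7.02, 6.97 and 6.65 in WT CD1 (change 0.40, SE 0.10, limma adjusted p = 0.00695, 0.0682 without WT replicate 3). At E12.5 it had 7.0, 7.20 and 7.23 in SO stroma, against 7.32, 7.26 and 7.28 in WT CD1 (change -0.14, adjusted p = 0.457). SO libraries lay above WT at E13.5 and below WT at E12.5, and the difference between stages, 0.55, missed the threshold (adjusted p = 0.0565). Lama2 (chr10:26980036-27619758) had 6.83, 6.77 and 6.74 in SO stroma at E13.5, against 5.93, 6.66 and 6.09 in WT CD1 (change 0.56, SE 0.15, adjusted p = 0.0156). Without SO replicate 1, WT replicate 1 or WT replicate 3 its call was lost (up to 0.0876), as it was without both libraries that stood apart (0.0863), 1 of which is this WT replicate 1. At E12.5 it had 6.23, 6.27 and 6.30 in SO stroma, against 6.38, 6.41 and 6.45 in WT CD1, with a change of -0.15 (adjusted p = 0.664).

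Markers of stroma and of other cell types were also called in SO stroma. Over all genes 18.5% were called over both stages, 10.2% higher and 8.32% lower. Of 14 stroma markers, 8 fell and 4 rose over both stages, Foxd1 itself falling by 1.02 on the log2 scale (limma adjusted p = 1.56e-07). Of 10 smooth muscle and ureteral mesenchyme markers, 6 rose and 0 fell, at a list mean of 5.00 to 5.47 in SO stroma at E13.5, against 3.03 to 3.31 in WT CD1, and of 4.37 to 4.91 in SO stroma at E12.5, against 4.56 to 4.78 in WT CD1. Of 9 cartilage markers 5 rose, and of 15 nephron progenitor and early nephron markers 5 rose and 2 fell. Of 6 liver markers 3 fell and of 10 erythroid markers 3 fell. None of 17 macrophage or 15 endothelial markers was called over both stages. At E13.5 the macrophage markers C1qc and C1qa rose by 1.57 and 1.59 (limma adjusted p = 0.0405 and 0.0418), and the median change was 1.29 over the macrophage list and 1.59 over the endothelial list. The part of any of these cells in the integrin and laminin changes was not tested.

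**Figure D4:**
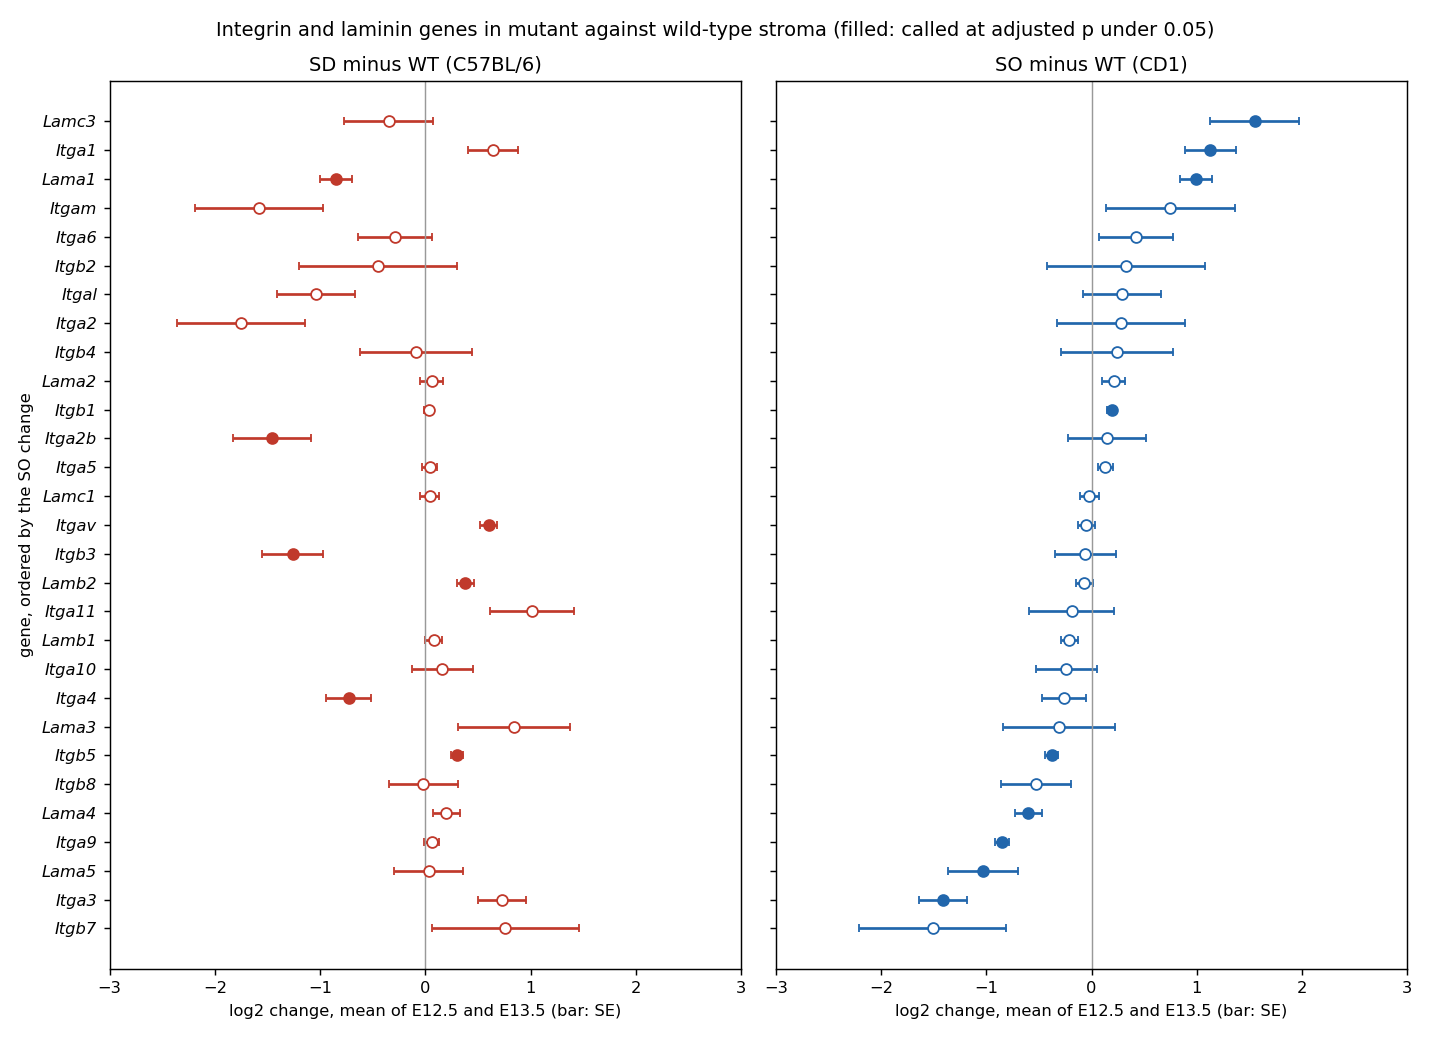
Log2 change of 29 of the 30 genes, as the mean of E12.5 and E13.5, in SD minus WT C57BL/6 (left) and SO minus WT CD1 (right), with SE bars and filled points for adjusted p under 0.05. Lama1 is at -0.85 and 0.99 and Itgb5 at 0.30 and -0.38 in these panels.

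The difference between both genotype effects was tested directly, as the SO effect minus the SD effect over the mean of the stages, 2 effects that share no library. Each genotype lies on its own strain, so the test cannot tell genotype from a response that depends on strain. By limma 10 of 30 genes were called (33.3%), 4 higher and 6 lower, against 17.9% of all genes. Lama1 differed by 1.84 (SE 0.21, limma adjusted p = 1.25e-06) and Itgb5 by -0.68 (SE 0.09, adjusted p = 4.36e-06). These were the genes of the family called in opposite directions in SD and SO stroma. Itga9 (-0.91, adjusted p = 8.12e-07), Itga3 (-2.14, adjusted p = 4.87e-05), Itgav (-0.64, adjusted p = 0.000251), Lama4 (-0.80, adjusted p = 0.0034) and Lamb2 (-0.45, adjusted p = 0.0053) also differed, each having been called in 1 genotype. All 7 of these calls held without any single library and under every other setting tried. The calls of Lamc3 (1.89), Itga2b (1.61) and Itgb3 (1.20) did not, and were lost without any of 4, 12 and 16 of the 24 libraries (adjusted p up to 0.057, 0.0683 and 0.0882), and with precision weights (0.0782, 0.239 and 0.142).

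Between stages, the wild-type strains were set side by side without a test of their difference. In WT CD1, 6 of 30 genes were called at E13.5 against E12.5, 2 higher and 4 lower, against 5.42% of all genes. Itga3 rose by 1.92 (SE 0.33, limma adjusted p = 0.00159) and Lamc1 by 0.45 (adjusted p = 0.0336). Itga2b fell by 2.80 (SE 0.52, adjusted p = 0.00298), Itgb3 by 2.46 (SE 0.41, adjusted p = 0.0011), Itga5 by 0.41 (adjusted p = 0.019) and Itgb5 by 0.37 (adjusted p = 0.0142). The stages did not overlap for any of these 6 genes, nor for some that were not called, such as Lama4 and Lamb1. The share of all genes without overlap between stages was not computed. Itga2b, for example, had a log2 CPM of 2.22, 1.80 and 1.27 at E13.5, against 4.12, 4.81 and 4.75 at E12.5. Platelet markers averaged log2 CPM 0.08 to 1.03 in WT CD1 at E13.5, against 3.07 to 3.15 at E12.5, and their part was not tested. The calls of Lamc1, Itga5 and Itgb5 were lost without any of 4, 4 and 3 of the 6 libraries (adjusted p up to 0.126, 0.132 and 0.0685). Without both libraries that stood apart, those of Lamc1 and Itgb5 were also lost (0.104 and 0.0555). The libraries were any E12.5 library and E13.5 replicate 1 for Lamc1, any E12.5 library and E13.5 replicate 3 for Itga5, and E12.5 replicate 1 and E13.5 replicates 1 and 3 for Itgb5.

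In WT C57BL/6, 1 of 30 genes was called between stages, against 3.96% of all genes. Itgb3 had a log2 CPM of 3.67, 3.14 and 2.56 at E13.5, against 4.25, 4.69 and 4.97 at E12.5, and fell by 1.52 (SE 0.41, limma adjusted p = 0.0385). The call was lost without any of the libraries but E13.5 replicate 1 (up to 0.193), with precision weights (0.0707) and without both libraries that stood apart (0.0835). Itga3 (1.09, adjusted p = 0.0634) and Lama4 (0.61, adjusted p = 0.0636) were higher at E13.5 without overlap and short of the threshold. Between strains, C57BL/6 and CD1 wild-types differed in 1 of 30 genes, against 4.46% of all genes. Itgal, the α chain of the leukocyte receptor for ICAM proteins, was lower in C57BL/6 by 1.31 on the log2 scale (SE 0.37, limma adjusted p = 0.0451), a call lost without any of 9 of the 12 libraries (up to 0.144). Macrophage and leukocyte markers averaged 2.41 to 5.18 in WT C57BL/6 at E12.5, against 5.25 to 5.36 in WT CD1, and 3.17 to 3.99 in WT C57BL/6 at E13.5, against 3.98 to 4.44 in WT CD1, and their part was not tested.

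The other 14 genes were called in none of the 6 genotype comparisons. Of these, Lamb1 and Lamc1 were abundant, and their mean changes were 0.08 and 0.04 in SD stroma and -0.21 and -0.02 in SO stroma (SE 0.08 and 0.09). Lamb1 was lower in all SO libraries than in all WT libraries of its stage, and missed the threshold over both stages (limma adjusted p = 0.0597). The epithelial chains Itga6 and Itgb4 changed by 0.42 and 0.24 in SO stroma (SE 0.35 and 0.53). Itga2, a collagen receptor chain, was lower by 1.75 in SD stroma (SE 0.61, adjusted p = 0.0861). It had 1 to 14 reads per SD library and 6 to 50 per WT C57BL/6 library. Itga11, a fibroblast collagen receptor chain, was higher in all SD libraries than in all WT libraries at E12.5 (2.01, SE 0.57, adjusted p = 0.074) and differed by 0.01 at E13.5. Itga10, a cartilage collagen receptor chain, Itgb8, Lama3 and Itgb7 had medians of 33.5, 30.5, 21 and 4 reads per library, and their mean changes had SEs of 0.29 to 0.70.

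**Figure D5:**
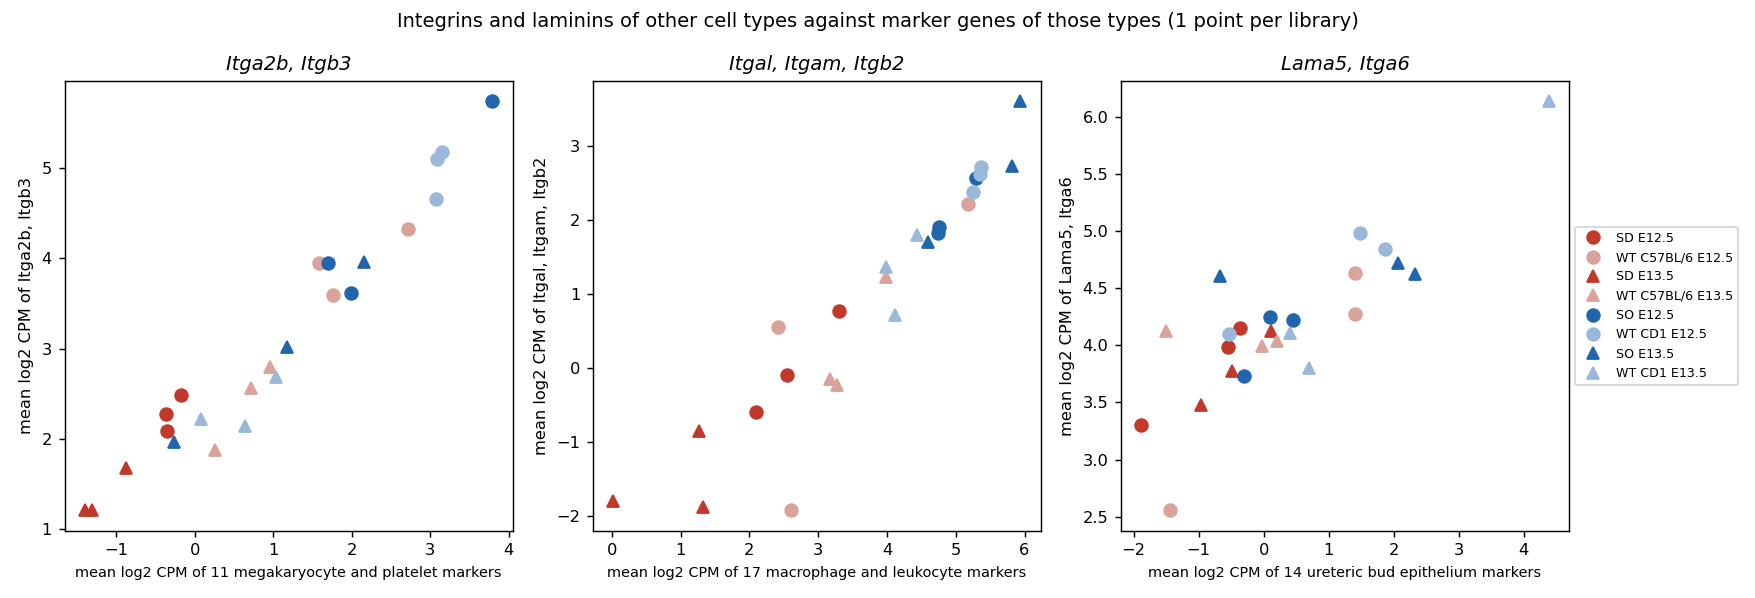
Mean log2 CPM of Itga2b and Itgb3 (left), of Itgal, Itgam and Itgb2 (middle) and of Lama5 and Itga6 (right) in each of 24 libraries against the mean of platelet, leukocyte or ureteric bud markers. SD libraries lie at the low end of the left panel, with platelet means of -1.40 to -0.18. SO E13.5 replicate 3 lies within that range, at -0.27. WT CD1 E13.5 replicate 1 stands alone at 4.38 in the right panel.

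The matrix partners of the receptors were taken from 3 lists. Among 24 basement membrane partners, 1 rose and 2 fell in SD stroma over both stages, and 7 rose and 3 fell in SO stroma, against the 7.17% and 18.5% of all genes called in SD and SO stroma. In SD stroma Fras1, an epithelial basement membrane adhesion protein, rose by 0.34, while its partner Frem1 fell by 0.97 and the collagen Col15a1 by 2.25 (limma adjusted p = 0.0356, 3.64e-07 and 0.0403). In SO stroma Egfl6, an integrin-binding matrix protein, rose by 1.60 (adjusted p = 1.58e-09), the laminin crosslinker Nid2 by 0.50, the collagen Col18a1 by 1.89 and Smoc1 by 1.08. The laminin-related guidance protein Ntn1 fell by 1.72 in SO stroma (adjusted p = 4.62e-09), Fras1 by 0.64 and the laminin receptor Dag1 by 0.31. The median log2 change of the list was 0.03 in SD stroma and 0.01 in SO stroma, against 0.00 over all genes in each.

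Among 25 other integrin ligands, 3 rose and 2 fell in SD stroma, and 6 rose and 2 fell in SO stroma, against the same 7.17% and 18.5% of all genes. Tnc, the ligand of Itga9, rose by 0.86 in SD stroma (limma adjusted p = 0.00155), with Edil3 at 0.75 and Ctgf at 0.69, while the endothelial Icam2 fell by 3.58 and Tgfb3 by 0.42. In SO stroma Ltbp1, which tethers latent TGF-β to the matrix, rose by 1.49 (adjusted p = 3.65e-08), Igfbp2 by 0.92, Nov by 1.67 and Ctgf by 1.12. Vtn, the ligand of the Itgav and Itgb5 receptor, fell by 4.05 (adjusted p = 0.0326) and Tgfb3 by 0.53. Vtn is made chiefly by liver, whose markers were raised in WT CD1 libraries, and the part of those was not tested. The list's median was -0.03 in SD stroma and 0.07 in SO stroma.

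Among 37 measured adhesion adaptors and activators, 4 rose and 2 fell in SD stroma and 8 rose and 2 fell in SO stroma, against 7.17% and 18.5% of all genes, with medians of 0.01 and 0.06. In SD stroma the tensins Tns3 (0.23), Tns1 (0.29) and Tns2 (0.29), which link integrin tails to actin, and Vcl (0.22) rose, and the blood-cell adaptors Parvg (-2.81) and Fermt3 (-1.63) fell. In SO stroma Tns3 (0.45, limma adjusted p = 8.49e-07), Zyx (0.41, adjusted p = 2.99e-06), Fermt2 (0.27) and Flna (0.32) rose, and Tns2 (-0.35) and Git1 (-0.18) fell. Tns2, Fras1 and Col15a1 were the genes of these lists called in opposite directions, and the SO effect minus the SD effect was -0.64 for Tns2, -0.98 for Fras1 and 4.39 for Col15a1 (limma adjusted p = 8.76e-05, 1.79e-05 and 0.00178). They were singled out after their values were seen.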

How the data were processed

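Messenger RNA was sequenced on an Illumina HiSeq from 24 libraries of sorted kidney stroma. The deposited values are log2 CPM per gene after TMM scaling, with 0.5 added to each count. The submitters' processing notes name HISAT2, HTSeq, limma and mm10 without versions. The sources used here state neither strandedness nor a filter. Undoing the deposited log2 scale gave read counts (100% within 0.1 of a whole number), used for depth, weights and read sums.

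The deposited log2 CPM of 13803 genes were modelled with limma 3.58.1 (R 4.3.3), as 8 group means with a mean-variance trend (16 residual and 6.43 prior degrees of freedom), in 12 contrasts. Tests were 2-sided, adjusted by Benjamini-Hochberg over all genes and called under 0.05. Levels between genes are CPM per kilobase of the longest GENCODE M21 transcript. Near-identical transcripts were sought with BLAST 2.17.0 (at least 200 bases at 95%). Alternatives were filters, pseudocount 1, voom weights, median-of-ratios size factors, the 12 libraries of a line, a replicate block and leaving out each library. The fits were tested on simulated data. The members and the 15 gene lists were chosen with earlier results of these data known. Values in every library are given for genes called in any of 6 genotype contrasts, and at most 4 genes per list, contrast and direction are named, those with the smallest p. The interval on read sums covers only counting error, because PCR copies were not marked by molecular identifiers. Values of 1 member are not reported here, though it stays in the counts and medians.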

Additional observations from a re-analysis of the deposited data

Results flagged for a closer look

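The effect of the SO genotype on Itga3 differed between stages by a direct test: the E13.5 effect minus the E12.5 effect was -1.91 on the log2 scale (SE 0.46, limma adjusted p = 0.044). The SO effect was -2.36 at E13.5 and -0.45 at E12.5. The call was lost in 9 of 12 fits that left out 1 library (adjusted p up to 0.115) and with precision weights (0.189). The cause was not tested.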

How the results depend on the processing

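No call reversed under any setting. Of 54 calls of a gene in a contrast, 31 held in every fit reported here, and the report names the libraries behind most of the others. Some settings listed below moved a count of called genes by over 1.5 times, and the cause was not tested. Other counts listed moved by less, such as those of the SD mean and the SO mean. The planned count-model fit was run at first and then dropped, because the deposited values are on a log2 scale. Read counts could still be recovered from them. The dropped fit is not among those behind the 31 calls, and its values are not given. It reversed no call but lost those of Lama1 and Lamb2 in SD at E13.5, of Lamc3 in SO at E13.5, over both stages and in SO minus SD, of Itga3 between stages in SO, of Itgb3 between C57BL/6 stages and of Itgal between strains. For SD at E12.5 (2), voom weights gave 1 and the 12 libraries of the line gave 4. For SD at E13.5 (4), voom weights and the 12 libraries each gave 2. For the SO stage difference (1) and the C57BL/6 stage contrast (1), voom weights gave 0. Leaving out both libraries that stood apart, an alternative chosen after seeing the data, gave 4 for SD at E12.5, 7 for SD at E13.5 and 5 for the SO stage difference, the C57BL/6 stage contrast and strain. Leaving out 1 library gave 0 to 5 (SD at E12.5), 1 to 3 (SD at E13.5), 3 to 5 (SO at E12.5), 6 to 10 (SO at E13.5), 6 to 9 (SD mean), 8 to 10 (SO mean), 0 to 5 (SO stage difference), 7 to 12 (SO minus SD), 0 to 3 (C57BL/6 stages), 3 to 6 (CD1 stages) and 0 to 5 (strain). The replicate numbers did not pair the samples: same-numbered deviations correlated at -0.14 to 0.28, over 0.1 in 2 of 12 pairs, and 9 of 24 libraries matched their own number best. With the replicate block the counts were 2, 5, 4 and 9 for the single stages (SD, then SO), 8 for the SD mean, 10 for the SO mean, 0 and 1 for the stage differences, 11 for SO minus SD, 3 and 7 for the C57BL/6 and CD1 stages and 3 for strain. Depth limits the chains with few reads, such as Itgb7, with 0 to 28 reads per library.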
